A study of Rattus norvegicus with 16 samples.

Results

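Tumour necrosis factor (TNF), its receptors and the A20 circuit that restrains them were followed across 16 RNA sequencing libraries of sorted rat microglia, the resident macrophages of the brain. The 9 genes were taken by symbol from the 21842 symbols of the series count table: Tnf (ENSRNOG00000070745), Tnfrsf1a (ENSRNOG00000031312), Tnfrsf1b (ENSRNOG00000016575), Tnfaip3 (ENSRNOG00000049517), Tnip1 (ENSRNOG00000010370), Tnip3 (ENSRNOG00000064111), Traf1 (ENSRNOG00000048914), Birc3 (ENSRNOG00000005731) and Cflar (ENSRNOG00000012473). Each symbol stood on a single Ensembl gene ID, and all 9 passed the filter on low counts. Tnip3 passed it through the libraries of LPS-treated irradiated rats and did not pass when sham libraries or PBS libraries were filtered alone.

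The libraries came from whole brains of male Wistar (Hsd/Cpb:WU) rats, with 4 per group. The groups were irradiated rats given lipopolysaccharide (LPS, a glycolipid of the outer membrane of Gram-negative bacteria), irradiated rats given phosphate-buffered saline (PBS, the vehicle), sham-irradiated rats given LPS and sham-irradiated rats given PBS. Irradiation was 14 Gy of X-rays, and the intraperitoneal injection followed 6 weeks later in all groups. Cells were sorted as DAPI-negative with high CD11b and intermediate CD45 after cold mechanical dissociation, a gate that can also hold some blood-derived cells. No label gives the age of the rats, the dose of LPS or the time from injection to sorting. The labels list separate samples without naming animals, so the p-values speak of the spread among those samples, which may be technical. The comparisons share groups, and each group of 4 libraries enters more than 1 of them.

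TNF is an inflammatory cytokine that microglia make when LPS is sensed through Toll-like receptor 4. It signals through a receptor with a death domain (TNFR1, gene Tnfrsf1a), carried by most cell types, and a second receptor without that domain (TNFR2, gene Tnfrsf1b), which is more restricted and abundant on myeloid and lymphoid cells. Receptor complexes built with TRAF adaptors and cellular inhibitors of apoptosis activate NF-kB, and NF-kB then induces the brakes of its own pathway, among them A20 (gene Tnfaip3), a ubiquitin-editing enzyme, and the A20-binding proteins ABIN1 (Tnip1) and ABIN3 (Tnip3).

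The proximal promoters of Tnfaip3, Tnip1 and Traf1 are shown because these genes were higher in irradiated than in sham rats given LPS and because their promoters hold an NF-kB-like motif. The motif searched was GGG, any 3 bases and then TTCC, on both strands and with overlapping matches allowed, in the 250 bases before the RefSeq start of each gene (build GRCr8). A promoter was matched for 8 of the 9 genes, all except Birc3. The motif was found in 3 of these 8, and in 4.53% of 33469 promoters of the same length. The 130 bases before the start are given 5′ to 3′ on the gene's strand, with motif matches in capitals.
Tnfaip3 (chr1:15543980-15544109, minus strand): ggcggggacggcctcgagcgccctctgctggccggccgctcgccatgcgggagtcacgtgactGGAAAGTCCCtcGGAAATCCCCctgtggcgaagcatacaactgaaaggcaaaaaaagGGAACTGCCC
Tnip1 (chr10:39584962-39585091, minus strand): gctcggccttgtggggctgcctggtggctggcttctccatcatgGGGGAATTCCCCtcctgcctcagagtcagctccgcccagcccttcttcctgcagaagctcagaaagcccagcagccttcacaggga
Traf1 (chr3:38635771-38635900, minus strand): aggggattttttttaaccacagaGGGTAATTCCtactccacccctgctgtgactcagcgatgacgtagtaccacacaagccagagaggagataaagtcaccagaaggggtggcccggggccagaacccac
Tnfaip3 held 3 matches, Tnip1 a pair that overlap on opposite strands, and Traf1 a single match. These letters were not found in the same window of Tnf, Tnfrsf1a, Tnfrsf1b, Tnip3 or Cflar.

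Total counts ranged from 18997145 to 62745496 in irradiated rats given LPS, 14309458 to 25015047 in irradiated rats given PBS, 16573558 to 19785105 in sham rats given LPS and 16849603 to 22482126 in sham rats given PBS. Levels are in CPM, counts relative to the library total corrected with TMM factors, and changes are log2 fold changes ± SE from edgeR with n = 4 per group. Of 13608 genes tested, a gene is said to rise or fall where the Benjamini-Hochberg adjusted p was under 0.05. The 8 microglial markers (P2ry12, Tmem119 and others) summed to 14100 to 18400 CPM in irradiated rats given LPS, 19900 to 25300 CPM in irradiated rats given PBS, 34600 to 38600 CPM in sham rats given LPS and 43800 to 47100 CPM in sham rats given PBS. Of the 7 that passed the filter, 7 were lower in irradiated than in sham rats under both injections, and Siglech, the eighth, had no read in sham rats given LPS. The shares of all genes called lower were 12.6% with LPS and 9.91% with PBS. In these bulk samples, fewer cells of a type and less RNA per cell cannot be told apart.

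LPS raised most of the circuit in both settings. In irradiated rats 8 of the 9 genes rose with LPS and 0 fell, where 17% of all genes tested were called higher and 14.5% lower. In sham rats 7 rose and 0 fell, where 15.2% of all genes were called higher and 14.5% lower. Irradiation without LPS raised 4 of the 9, Tnip1, Tnip3, Traf1 and Birc3, and lowered 0, where 11.5% of all genes were called higher and 9.91% lower. Among rats given LPS, irradiated animals had higher levels of 6 of the 9, Tnfaip3, Tnip1, Tnip3, Traf1, Birc3 and Cflar, and 0 were lower, where 15.1% of all genes were called higher and 12.6% lower. Tnf and both receptor genes were not among them. Tnip3 is in each of these counts, although it passed the filter through irradiated rats given LPS, the group where it was highest. With no filter on low counts, the members called were again 8, 7, 4 and 6. No member was called lower by DESeq2 or limma voom either, and at an unadjusted p under 0.05 in edgeR 9, 7, 5 and 6 members passed for LPS in irradiated rats, LPS in sham rats, irradiation with PBS and irradiation with LPS, all of them higher. In each of these comparisons the genes that rose were also the members whose 4 libraries all lay above the 4 libraries of the other group. Such a separation was seen for 17.5% of all genes for LPS in irradiated rats, 14.6% for LPS in sham rats, 13.9% for irradiation with PBS and 15% for irradiation with LPS. The median change of the 9 genes was 1.80, 0.91, 0.23 and 0.96 on the log2 scale in these 4 comparisons, and that of all genes lay between -0.02 and 0.01.

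**Figure D1:**
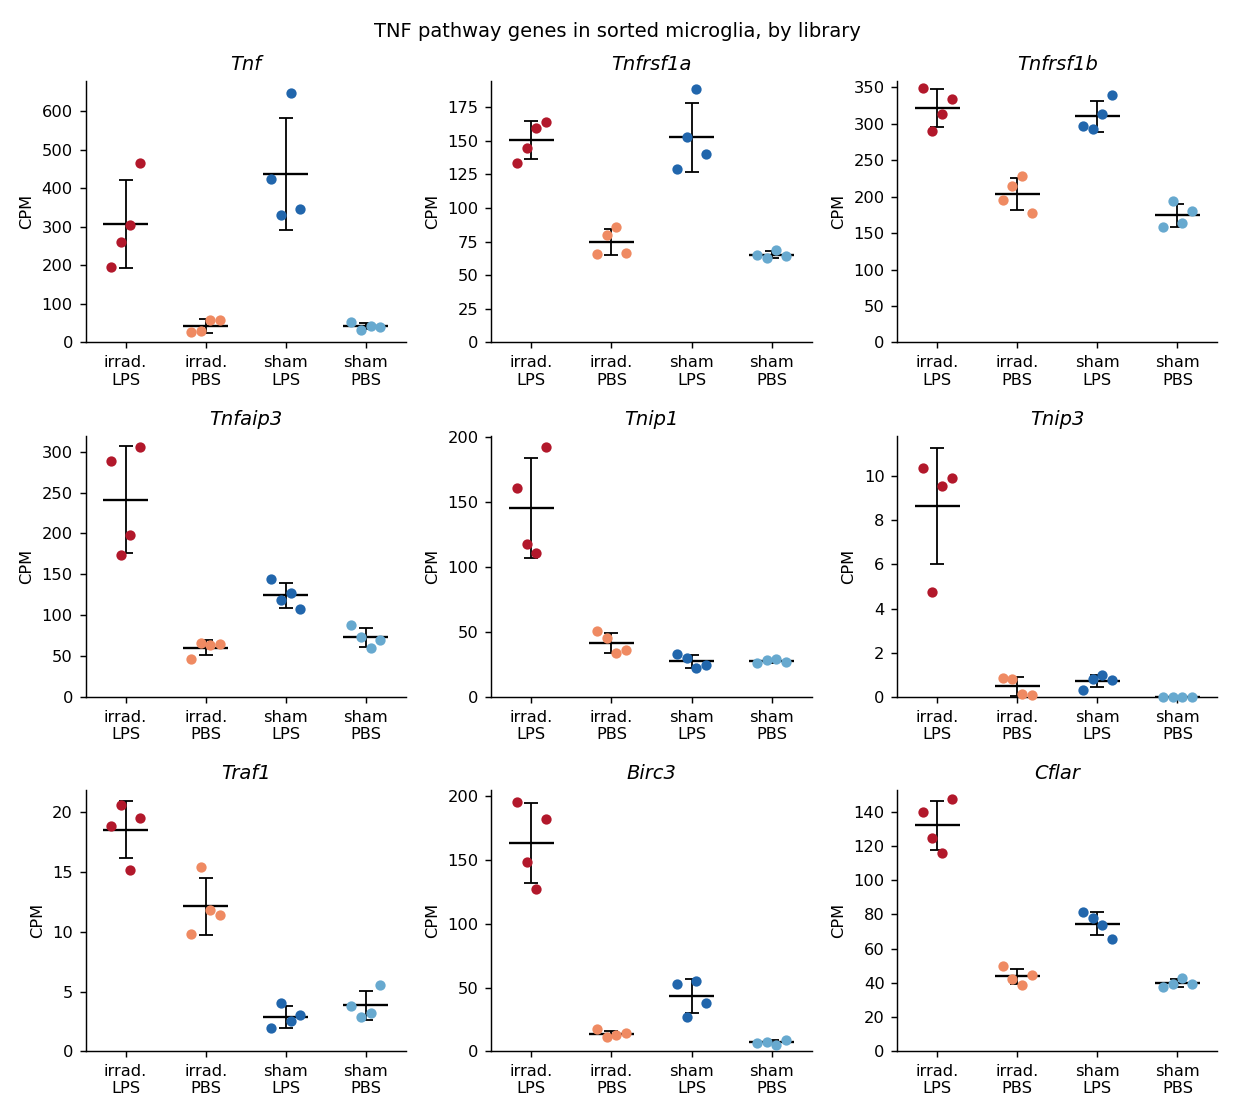
Level of each of the 9 genes in CPM (vertical axes, starting at 0) in each library, with points for the 4 libraries of a group in the order of their replicate numbers, a bar at the mean and whiskers of 1 SD. The 4 libraries of irradiated rats given LPS are the highest in Tnfaip3, Tnip1, Tnip3, Birc3 and Cflar, with no overlap with any other group, whereas for Tnf and both receptors the irradiated and sham LPS groups overlap.

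Tnf, the ligand, had 195, 262, 306 and 466 CPM in irradiated rats given LPS and 26.5, 29.2, 57.9 and 58.2 CPM in irradiated rats given PBS. It had 425, 330, 647 and 347 CPM in sham rats given LPS and 52.0, 33.3, 41.7 and 40.4 CPM in sham rats given PBS. The LPS libraries stood above all PBS libraries in both settings, and the irradiated and sham libraries overlapped with LPS and with PBS. Tnf rose with LPS by 2.84 ± 0.34 in irradiated rats (adjusted p = 1.73e-05) and by 3.39 ± 0.35 in sham rats (adjusted p = 5.48e-06). Irradiation did not change Tnf past the threshold, at -0.51 ± 0.31 among rats given LPS (adjusted p = 0.265, 95% interval -1.18 to 0.164) and 0.04 ± 0.32 among rats given PBS (adjusted p = 0.95, 95% interval -0.645 to 0.729). Equal Tnf levels were not shown, given these intervals. The coefficient of variation of Tnf was 37.5% in irradiated rats given LPS, 40.7% in irradiated rats given PBS, 33.4% in sham rats given LPS and 18.4% in sham rats given PBS.

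Tnfrsf1a, which encodes the death domain receptor TNFR1, had 134, 145, 160 and 164 CPM in irradiated rats given LPS, against 66.1, 79.8, 85.8 and 66.7 CPM in irradiated rats given PBS. It had 129, 153, 188 and 140 CPM in sham rats given LPS, against 64.9, 62.9, 69.0 and 64.0 CPM in sham rats given PBS. The LPS libraries all lay above the PBS libraries, and irradiation left the ranges overlapping. Tnfrsf1a rose 2.02-fold with LPS in irradiated rats (1.01 ± 0.12, adjusted p = 2.48e-06) and 2.34-fold in sham rats (1.23 ± 0.12, adjusted p = 4.25e-07).

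Tnfrsf1b, which encodes TNFR2, averaged 322 ± 25.5 CPM in irradiated rats given LPS, 204 ± 21.8 CPM in irradiated rats given PBS, 310 ± 21.2 CPM in sham rats given LPS and 174 ± 16.2 CPM in sham rats given PBS (SD, n = 4 each). It rose 1.58-fold with LPS in irradiated rats (0.66 ± 0.09, adjusted p = 2.55e-05) and 1.78-fold in sham rats (0.83 ± 0.09, adjusted p = 2.7e-06), with no overlap between LPS and PBS libraries. With PBS, irradiation moved Tnfrsf1b by 0.23 ± 0.09 (adjusted p = 0.0896) and Tnfrsf1a by 0.19 ± 0.11 (adjusted p = 0.262). Both passed with library totals in place of TMM factors (adjusted p = 0.00383 for Tnfrsf1b and 0.0193 for Tnfrsf1a), a scaling that moved the median of all genes in that comparison by 0.156. With LPS the irradiated and sham levels of the receptors differed by 0.05 ± 0.09 for Tnfrsf1b (95% interval -0.141 to 0.244) and -0.02 ± 0.11 for Tnfrsf1a (95% interval -0.258 to 0.218).

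Tnfaip3, the gene of A20, showed its highest levels in irradiated rats given LPS, at 289, 173, 198 and 305 CPM, against 46.7, 65.7, 63.6 and 65.3 CPM in irradiated rats given PBS. It had 144, 118, 127 and 108 CPM in sham rats given LPS, against 88.1, 73.4, 60.4 and 70.1 CPM in sham rats given PBS. The irradiated LPS libraries stood above every other library, and the PBS groups overlapped. LPS raised Tnfaip3 by 2.00 ± 0.18 in irradiated rats (adjusted p = 1.87e-07) and by 0.77 ± 0.17 in sham rats (adjusted p = 0.00249). Between irradiated and sham rats given LPS it was higher by 0.96 ± 0.17 (adjusted p = 0.000367), whereas with PBS the difference was -0.27 ± 0.17 (adjusted p = 0.293).

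Tnip1 encodes ABIN1, the ubiquitin-binding adaptor that brings A20 to its targets. It had 161, 118, 111 and 193 CPM in irradiated rats given LPS, against 50.8, 45.7, 34.1 and 36.6 CPM in irradiated rats given PBS. In sham rats it had 33.4, 29.8, 22.5 and 24.6 CPM with LPS, against 26.5, 28.4, 29.2 and 26.6 CPM with PBS. The 2 sham groups overlapped, and every irradiated library lay above every sham library. LPS raised Tnip1 3.49-fold in irradiated rats (1.80 ± 0.17, adjusted p = 3.95e-07), while in sham rats the change was -0.01 ± 0.17 (adjusted p = 0.987, 95% interval -0.368 to 0.358). Irradiated rats exceeded sham rats by 2.40 ± 0.18 with LPS (adjusted p = 2.55e-08) and by 0.59 ± 0.17 with PBS (adjusted p = 0.0187). The difference with PBS did not pass without the first irradiated PBS library (0.49, adjusted p = 0.0724) or the second (0.54, adjusted p = 0.0519).

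Tnip3 encodes ABIN3, a relative of ABIN1 known to be induced by LPS in human monocytes. It was read 202, 292, 307 and 370 times in irradiated rats given LPS (10.4, 4.74, 9.56 and 9.93 CPM), against 14, 15, 3 and 2 times in irradiated rats given PBS (0.871, 0.832, 0.144 and 0.0729 CPM). In sham rats it was read 5, 15, 17 and 14 times with LPS (0.303, 0.829, 0.974 and 0.771 CPM), against 0 times in all 4 libraries with PBS. A floor of 3 reads over the sham PBS group corresponds to 0.0382 CPM. Tnip3 rose at least 18.8-fold with LPS in sham rats and was at least 12.6-fold higher in irradiated than in sham rats given PBS (adjusted p = 0.000537 and 0.00222). In irradiated rats LPS raised Tnip3 by 4.22 ± 0.65 (adjusted p = 0.000146), and among rats given LPS the irradiated exceeded the sham group by 3.57 ± 0.63 (adjusted p = 5e-04). Tnip3 had passed the filter through this irradiated LPS group, so these p-values are those of a gene kept by its level there.

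Traf1 encodes an adaptor of TNFR2 and other TNF family receptors and is prominent in activated lymphocytes. It had 18.9, 20.6, 15.1 and 19.6 CPM in irradiated rats given LPS and 9.83, 15.4, 11.8 and 11.5 CPM in irradiated rats given PBS. It had 1.94, 4.09, 2.52 and 3.03 CPM in sham rats given LPS and 3.77, 2.84, 3.22 and 5.59 CPM in sham rats given PBS. All irradiated libraries lay above all sham libraries, whereas the LPS and PBS libraries overlapped in both settings. Traf1 was higher in irradiated than in sham rats by 2.67 ± 0.26 with LPS (adjusted p = 4.32e-07) and by 1.65 ± 0.25 with PBS (adjusted p = 8.8e-05). LPS moved it by 0.61 ± 0.24 in irradiated rats (adjusted p = 0.0559) and by -0.41 ± 0.25 in sham rats (adjusted p = 0.245). The change in irradiated rats passed in DESeq2 (adjusted p = 0.0282), limma voom (adjusted p = 0.00746), a fit of the irradiated groups alone (adjusted p = 0.0211) and with replicate number as a block (adjusted p = 0.0441).

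Birc3, the gene of cellular inhibitor of apoptosis 2 (cIAP2), a ubiquitin ligase of the TNFR1 complex, responded to both LPS and irradiation. It had 195, 148, 127 and 182 CPM in irradiated rats given LPS, against 17.2, 11.5, 12.9 and 14.2 CPM in irradiated rats given PBS. In sham rats it had 52.7, 26.6, 55.0 and 38.2 CPM with LPS, against 6.93, 7.53, 5.02 and 9.26 CPM with PBS. None of the 4 groups overlapped with its neighbour in the order of levels, which ran from irradiated LPS through sham LPS and irradiated PBS to sham PBS. Birc3 rose with LPS by 3.55 ± 0.24 in irradiated rats (adjusted p = 1.01e-08) and by 2.59 ± 0.23 in sham rats (adjusted p = 4.15e-07). Irradiation raised it by 1.92 ± 0.22 among rats given LPS (adjusted p = 4.17e-06) and by 0.96 ± 0.23 among rats given PBS (adjusted p = 0.00595).

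Cflar encodes cFLIP, the inhibitor that keeps caspase-8 inactive in TNF receptor complexes. It had 140, 125, 116 and 147 CPM in irradiated rats given LPS, against 49.6, 42.2, 38.8 and 44.6 CPM in irradiated rats given PBS. In sham rats it had 81.4, 77.9, 73.7 and 65.6 CPM with LPS, against 37.8, 39.3, 43.1 and 39.1 CPM with PBS. The PBS groups overlapped and the other groups were apart. Cflar rose with LPS by 1.59 ± 0.10 in irradiated rats (adjusted p = 4.6e-09) and by 0.91 ± 0.10 in sham rats (adjusted p = 2.85e-06), and the irradiated exceeded the sham group by 0.82 ± 0.10 with LPS (adjusted p = 6.09e-06) and 0.14 ± 0.10 with PBS (adjusted p = 0.38).

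**Figure D2:**
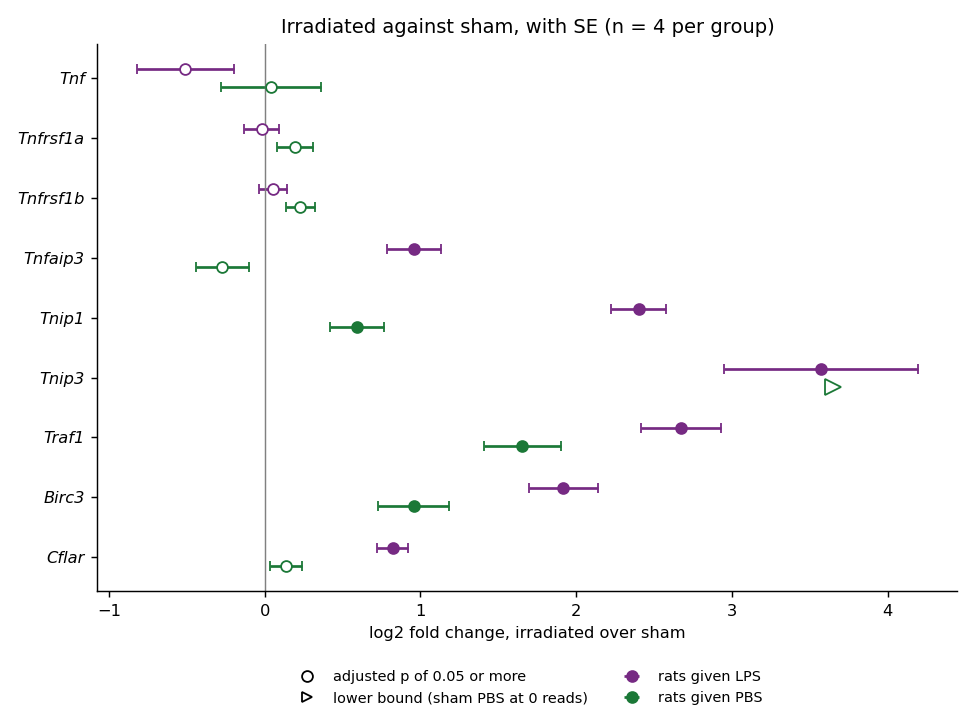
Log2 fold change of irradiated over sham rats (horizontal axis) for each gene, with whiskers of 1 SE, among rats given LPS and rats given PBS. Filled points passed an adjusted p of 0.05 and open points did not. The arrowhead, labelled a lower bound, is the group mean of Tnip3 with PBS over the floor, where sham libraries held no read. It does not allow for the spread among the irradiated libraries. Tnf, Tnfrsf1a and Tnfrsf1b have open points in both comparisons, and the other 6 genes have filled points with LPS.

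Whether irradiation altered the LPS response itself was tested as the difference of the responses in irradiated and sham rats. Of the 9 genes, 3 responded more strongly in irradiated rats and none more weakly, where 0.61% of all genes tested were called higher and 0.647% lower. The members' median difference was 0.68 and that of all genes 0.01. The called members were Tnip1, with a difference of 1.81 ± 0.24 (adjusted p = 0.00102), Tnfaip3, with 1.23 ± 0.24 (adjusted p = 0.0155), and Cflar, with 0.68 ± 0.14 (adjusted p = 0.0209). By p-value Tnip1 ranked 9 among all 13608 genes, Tnfaip3 ranked 76 and Cflar ranked 90. Without both irradiated libraries numbered 1, whose 6 neuronal markers summed to 109 CPM with LPS and 74.4 CPM with PBS, against at most 25.1 and 33.4 CPM in the other libraries of these groups, the difference was 1.03 for Tnfaip3 (adjusted p = 0.0566). It was 1.87 for Tnip1 (adjusted p = 0.00314) and 0.72 for Cflar (adjusted p = 0.0399). The Cflar call was lost with library totals in place of TMM factors (0.60, adjusted p = 0.082), without the third sham PBS library (adjusted p = 0.053) and without the fourth irradiated LPS library (adjusted p = 0.051). In the same test 1 of 4 B cell markers was called higher (2 at an unadjusted p under 0.05, median 0.87), also by DESeq2 and not by limma voom. By edgeR 0 of 7 microglial, 0 of 11 T and NK cell, 0 of 6 monocyte, 0 of 8 neutrophil and 0 of 7 border-associated macrophage markers were called, with medians of -0.30, -0.20, 0.30, 2.85 and -0.21. At an unadjusted p under 0.05 these counts were 4, 1, 1, 4 and 1. DESeq2 called 1 microglial marker lower and 3 neutrophil markers higher and none of the other 3 lists, and limma voom called none. The part of these cells in the differences was not tested.

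For the other members the difference of the responses did not pass. It was 1.02 ± 0.35 for Traf1 (adjusted p = 0.203, 95% interval 0.296 to 1.75) and 0.96 ± 0.31 for Birc3 (adjusted p = 0.182, 95% interval 0.302 to 1.62), both with intervals above 0 before adjustment over all genes. It was -0.55 ± 0.45 for Tnf (adjusted p = 0.715, 95% interval -1.51 to 0.41), -0.21 ± 0.16 for Tnfrsf1a (adjusted p = 0.679) and -0.18 ± 0.13 for Tnfrsf1b (adjusted p = 0.671). For Tnip3 no fold difference is given, because the response in sham rats is set against 0 reads.

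**Figure D3:**
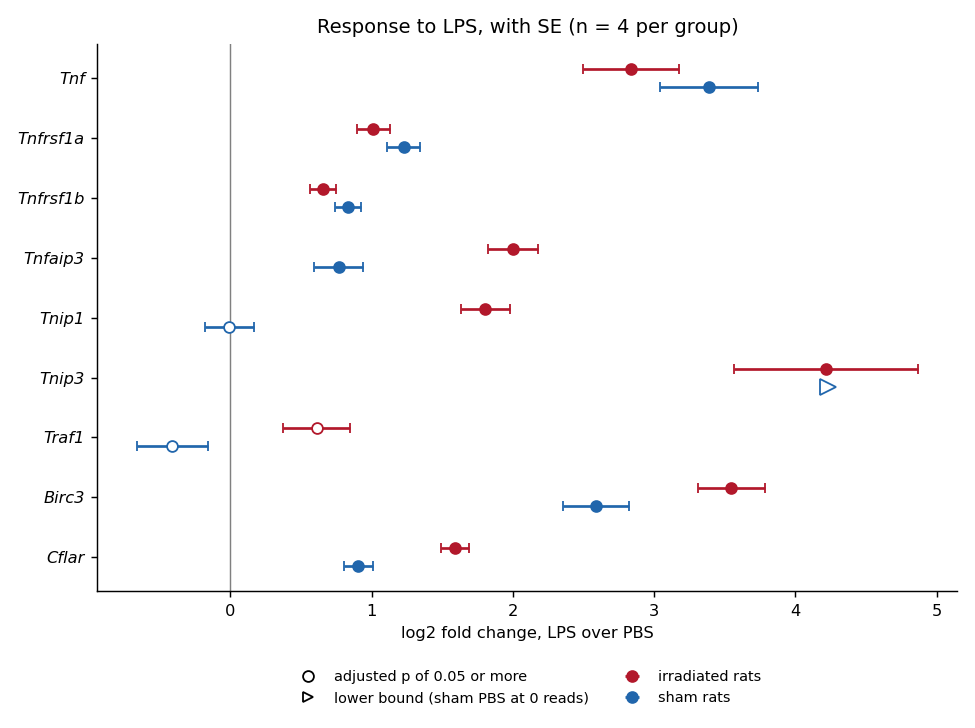
Log2 fold change of LPS over PBS (horizontal axis) for each gene, with whiskers of 1 SE, in irradiated and sham rats. Filled points passed an adjusted p of 0.05 and open points did not. The arrowhead, labelled a lower bound, is the group mean of Tnip3 in sham rats given LPS over the floor, without allowance for spread. Among the genes with fitted values in both settings, the points of Tnip1 lie farthest apart, at 1.80 in irradiated and -0.01 in sham rats, and those of Tnf and both receptors lie lower in irradiated than in sham rats without a difference that passed.

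Read ratios within a library do not depend on how libraries are scaled, although they are not ratios of transcript numbers because gene length is not accounted for. The ratio of Tnfaip3 to Tnf reads was 1.48, 0.662, 0.647 and 0.656 in irradiated rats given LPS, against 1.76, 2.25, 1.1 and 1.12 in irradiated rats given PBS. In sham rats it was 0.339, 0.358, 0.196 and 0.31 with LPS, against 1.69, 2.2, 1.45 and 1.74 with PBS. All irradiated LPS libraries thus held more Tnfaip3 reads per Tnf read than any sham LPS library, and the first irradiated LPS library, where Tnf was lowest at 195 CPM, stood well above the other 3. The ratio of Tnfrsf1b to Tnfrsf1a reads had a median of 2.02 in irradiated rats given LPS, against 2.68 with PBS, and of 2.1 in sham rats given LPS, against 2.63 with PBS. Its ranges overlapped between irradiated and sham rats under both injections. These ratios are descriptions and were not tested.

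**Figure D4:**
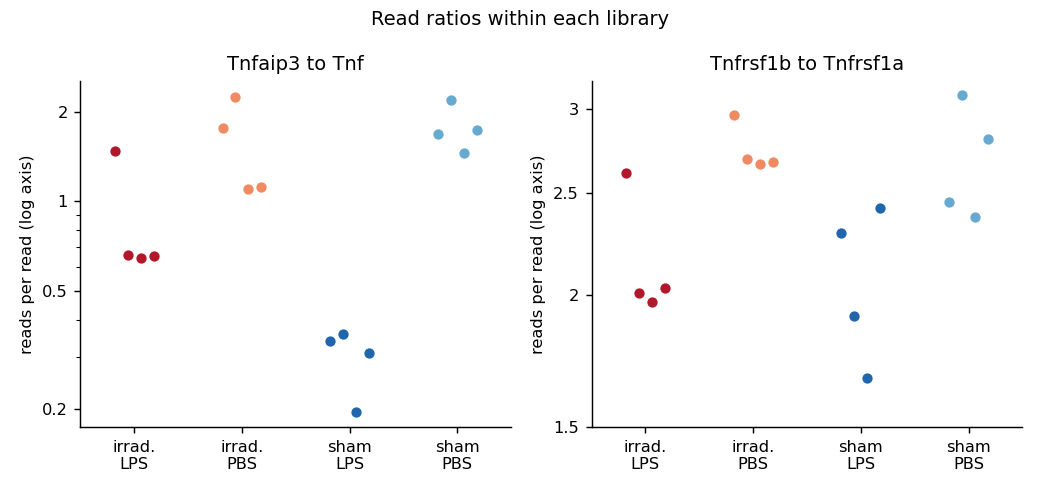
Reads of Tnfaip3 per read of Tnf (left) and of Tnfrsf1b per read of Tnfrsf1a (right) in each library, on logarithmic vertical axes. The Tnfaip3 to Tnf ratio lies between 0.647 and 1.48 in irradiated rats given LPS and between 0.196 and 0.358 in sham rats given LPS, while the receptor ratio overlaps between these groups.

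The members differed in how their levels ran over the 16 libraries. As a measure of likeness, the root mean square difference of centred log2 CPM was smallest between Tnfrsf1a and Tnfrsf1b (0.244) and between Cflar and Tnfaip3 (0.29), and it was 2.17 between Tnfrsf1b and Tnip3. The other genes compared were the 7953 whose log2 CPM averaged 3 or more. Among them the nearest to Tnf were Zfp36 (0.408), Irf1 (0.443), Sbno2 (0.475), Csf2rb (0.508) and Slamf1 (0.531), against a median of 1.64. The nearest to Tnfaip3 were Zc3h12a (0.254), Dtx2 (0.282), the member Cflar (0.29), Hif1a (0.302) and Dusp16 (0.302), against a median of 0.856. Zfp36 encodes tristetraprolin, which destabilises Tnf mRNA, and Zc3h12a encodes regnase-1, an RNase that degrades inflammatory mRNAs. For Tnfrsf1b the nearest were Paf1 (0.121), Myd88 (0.128), Cmtm6 (0.136), Plaa (0.136) and Syncrip (0.14), against a median of 0.501.

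Among 9 tested A20 partners and other deubiquitinases, 2 were higher in irradiated than in sham rats given LPS and 0 lower, where DESeq2 called 1 lower. The shares of all genes were 15.1% higher and 12.6% lower, so the 2 are near the share of all genes. The list median was -0.04, against 0.01 over all genes. The 2 genes were Tnip2, which encodes the third A20-binding protein ABIN2, at 1.02 ± 0.19 (adjusted p = 0.000551), and Cyld, a deubiquitinase that also limits NF-kB, at 0.63 ± 0.12 (adjusted p = 0.000479). Tnip2 averaged 171 ± 16.5 CPM in irradiated rats given LPS, 42.9 ± 9.18 CPM in irradiated rats given PBS, 84.3 ± 25.8 CPM in sham rats given LPS and 33.0 ± 6.77 CPM in sham rats given PBS (SD, n = 4 each). Unlike Tnip1, Tnip2 rose with LPS in sham rats (1.36 ± 0.19, adjusted p = 4.97e-05) as well as in irradiated rats (1.99 ± 0.20, adjusted p = 6.3e-07).

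Of 20 tested genes of the TNF receptor signalling complexes, 4 were higher and 1 lower in irradiated than in sham rats given LPS (list median 0.07), counts near the 15.1% higher and 12.6% lower of all genes. In this list 0 differed in their LPS response in edgeR (list median 0.13, with 2 at an unadjusted p under 0.05), DESeq2 or limma voom. The shares of all genes for this difference in edgeR were 0.61% higher and 0.647% lower, so 0 is near them. Birc2, the close relative of Birc3 that encodes cIAP1, averaged 89.7 ± 5.51 CPM in irradiated and 68.1 ± 6.27 CPM in sham rats given LPS, a difference of 0.40 ± 0.09 (adjusted p = 0.00202). Mlkl, the executioner of necroptosis, was higher in irradiated rats by 1.63 ± 0.28 with LPS (adjusted p = 0.000287) and by 1.28 ± 0.29 with PBS (adjusted p = 0.00408). The kinase genes Ripk1 and Ripk3 rose with LPS by 1.15 ± 0.09 and 1.33 ± 0.13 in irradiated rats and by 1.07 ± 0.09 and 1.07 ± 0.13 in sham rats.

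Of 16 tested genes of TNF shedding and mRNA control, 7 rose and 5 fell with LPS in irradiated rats, and 5 rose and 3 fell in sham rats, with list medians of 0.20 and 0.28. Of all genes, 17% rose and 14.5% fell in irradiated rats, and 15.2% rose and 14.5% fell in sham rats, so the 3 that fell in sham rats are near the share of all genes. Zfp36 rose by 2.80 ± 0.12 in irradiated rats (adjusted p = 5.86e-11) and by 3.06 ± 0.13 in sham rats (adjusted p = 1.22e-11), and it averaged 1513 ± 58.9 CPM in irradiated and 1816 ± 218 CPM in sham rats given LPS. Zfp36l1, a relative of Zfp36, was the single gene of this list whose LPS response differed in edgeR, and it was weaker in irradiated rats (-0.63 ± 0.13, adjusted p = 0.0164). For this difference 0.61% of all genes were called higher and 0.647% lower.

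Several other TNF family ligands and receptors were higher in irradiated rats. Of 10 tested ligands, 7 were higher and 1 lower in irradiated than in sham rats given LPS, and 5 were higher and 0 lower with PBS, with list medians of 1.61 and 1.21. With PBS, DESeq2 called 6 ligands higher and 0 lower, and limma voom 6 higher and 1 lower. Of all genes, 15.1% were called higher and 12.6% lower with LPS, and 11.5% higher and 9.91% lower with PBS. Tnfsf9, the ligand of the co-stimulatory receptor 4-1BB, averaged 90.8 ± 13.7 CPM in irradiated and 16.0 ± 3.05 CPM in sham rats given LPS. Of 17 tested receptors, 7 were higher and 3 lower in irradiated than in sham rats given LPS (list median 0.39), the 3 being near the 12.6% of all genes called lower, with Tnfrsf14 at 3.43 ± 0.30 (adjusted p = 6.1e-07) and Tnfrsf11a, the gene of RANK, at -1.39 ± 0.13 (adjusted p = 4.29e-07). Of 17 tested TRAF, IAP and BCL2 family genes, Bcl2a1, a survival gene, was the only one whose LPS response differed in edgeR, at 1.05 ± 0.24 (adjusted p = 0.0409). For that difference DESeq2 called 1 gene of this list higher and 1 lower, and limma voom called 1 higher. The shares of all genes for it in edgeR were 0.61% higher and 0.647% lower. LPS raised 17% of all genes in irradiated rats and 15.2% in sham rats. Of 11 NF-kB subunits and inhibitors, 9 rose with LPS in irradiated rats and 9 in sham rats (list medians 1.17 and 0.93). Bcl3 alone differed in its response in edgeR, with a smaller fold rise in irradiated rats (-1.61 ± 0.35, adjusted p = 0.0293). For this difference limma voom called no gene of the list, and DESeq2 called 2 lower. Bcl3 averaged 94.35 CPM with LPS and 4.72 CPM with PBS in irradiated rats, against 69.4 and 1.13 CPM in sham rats. With PBS it was higher in irradiated than in sham rats by 2.05 ± 0.28 (adjusted p = 3.95e-05).

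Markers of T and NK cells, monocytes and border-associated macrophages had their highest sums in irradiated rats given LPS, where Tnfaip3, Tnip1, Tnip3, Birc3 and Cflar were also highest, while the sum of B cell markers was lower with LPS than with PBS in both settings. The summed level of 11 T and NK cell markers was 518 to 1030 CPM in irradiated rats given LPS, 100 to 190 CPM in irradiated rats given PBS, 21.2 to 193 CPM in sham rats given LPS and 16.4 to 24.5 CPM in sham rats given PBS. LPS in irradiated rats raised 4 of these 11 markers and lowered 1 (median 0.50), where 17% of all genes rose and 14.5% fell. Of the 11, 9 were called higher in irradiated than in sham rats given LPS, and none was at 0 in a whole group. In that comparison 15.1% of all genes were called higher, the share to set beside the later counts for irradiated against sham rats. The 6 B cell markers summed to 29.7 to 62.5 CPM in irradiated rats given LPS, 95.6 to 147 CPM in irradiated rats given PBS, 7.95 to 9.8 CPM in sham rats given LPS and 54.6 to 83.1 CPM in sham rats given PBS. Of the 4 that passed the filter, LPS lowered 1 and raised 0 in each setting, where it lowered 14.5% of all genes in each. Their median change with LPS was 0.64 in irradiated and -0.53 in sham rats, so the sums do not describe most of these markers. Of the same 4, 3 were higher in irradiated than in sham rats given LPS, and Pax5 had no read outside irradiated rats given LPS. Total counts reached 62745496 in that group, against at most 25015047 in any other, and the part of depth was not tested.

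The 7 monocyte markers summed to 366 to 660 CPM in irradiated rats given LPS, 158 to 267 CPM in irradiated rats given PBS, 247 to 317 CPM in sham rats given LPS and 84.5 to 154 CPM in sham rats given PBS. Of the 6 that passed the filter, LPS in irradiated rats raised 4 and lowered 0 (median 1.73), where 17% of all genes rose and 14.5% fell. Of the same 6, 4 were higher in irradiated than in sham rats given LPS, and Chi3l3 had no read outside irradiated rats given LPS. The 7 markers of border-associated macrophages summed to 1200 to 1680 CPM in irradiated rats given LPS, 825 to 1110 CPM in irradiated rats given PBS, 314 to 612 CPM in sham rats given LPS and 325 to 373 CPM in sham rats given PBS. Although this sum was higher with LPS in irradiated rats, LPS there raised 2 of these 7 markers and lowered 2 (median -0.275). Of the 7, 6 were higher in irradiated than in sham rats given LPS, and none was at 0 in a whole group. The 11 neutrophil markers summed to 364 to 2240 CPM in irradiated rats given LPS, with the highest value in library 1, 229 to 302 CPM in irradiated rats given PBS, 243 to 294 CPM in sham rats given LPS and 322 to 403 CPM in sham rats given PBS. Of the 8 neutrophil markers that passed the filter, 7 were higher in irradiated than in sham rats given LPS in edgeR and DESeq2, and 2 in limma voom. The granule gene Mpo had no read in any library, Elane had none outside irradiated rats given LPS, and Ltf had none outside irradiated rats given PBS. The part of sequencing depth in the reads of Chi3l3 and Elane was not tested either. Without both irradiated libraries numbered 1, Tnfaip3, Tnip1, Tnip3, Traf1, Birc3 and Cflar were still higher in irradiated than in sham rats given LPS, by 0.88, 2.37, 3.49, 2.69, 1.84 and 0.81 on the log2 scale. The part of these other cells in the levels of the 9 genes was not tested.

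**Figure D5:**
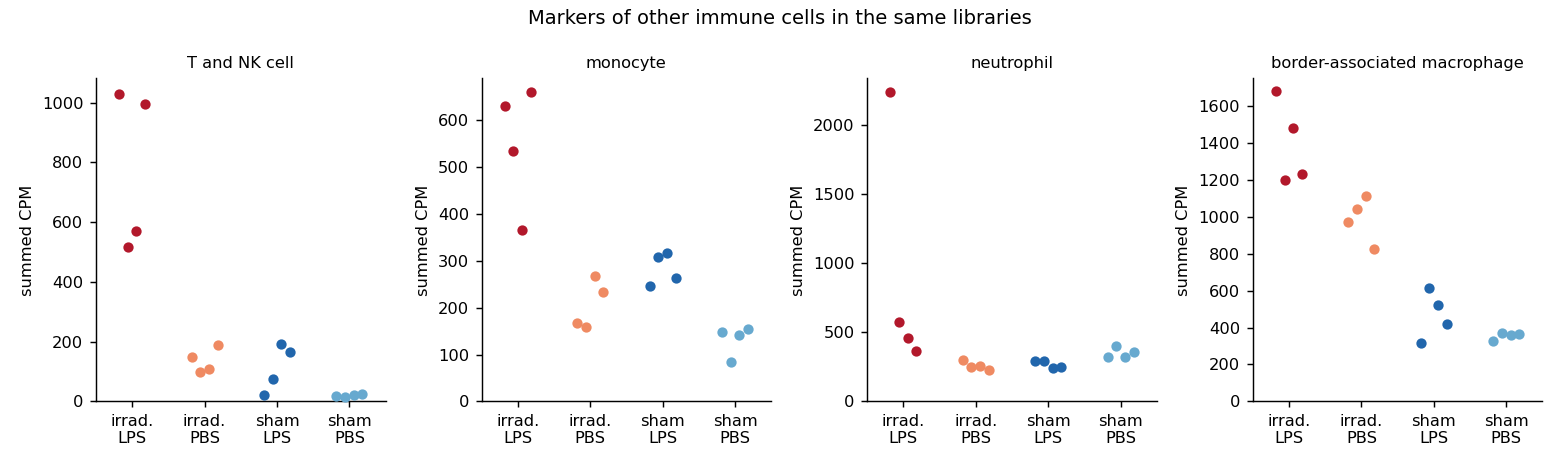
Summed CPM of markers of T and NK cells, monocytes, neutrophils and border-associated macrophages in each library (vertical axes, starting at 0), by group. T and NK cell markers lie between 518 and 1030 CPM in irradiated rats given LPS and between 21.2 and 193 CPM in sham rats given LPS.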

How the data were processed

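RNA of 16 libraries was sequenced, 4 per group. The authors deposited whole read counts for each Ensembl gene. The submitters' processing notes list fastp 0.23.2, FastQC 0.11.9, HTSeq 2.0.2 and, as genome, mRatBN7.2. Which aligner, strand setting and annotation release were used is not given in the sources used here. A deposited table of counts by symbol held identical values (0 of 349472 cells differed). Genes were filtered with filterByExpr and tested by the quasi-likelihood test of edgeR 4.0.16 (R 4.3.3), with TMM scaling, robust moderation, all libraries in a single fit and Benjamini-Hochberg adjustment over 13608 genes. Each SE was the absolute log2 fold change divided by the square root of F. Log2 CPM used a prior count of 2. Members and lists were chosen with earlier results of these data known. The text names all members and, per list and comparison, at most the 3 called genes with the smallest p. For Tnf, Tnfaip3 and Tnfrsf1b it also names the 5 genes with the most similar profile. Marker and list symbols were matched with RefSeq synonyms. Replicates differed beyond sampling noise in all 24 pairs (chi-square over degrees of freedom from 19.2 to 75.1). Alternatives covered scaling, filters, DESeq2 1.42.0, limma 3.58.1 voom, samples fitted, a replicate block and single libraries left out. The procedure was also run on simulated counts with known changes, and no result of that run is used here. Depth sets the precision, and for Tnip3 this is a few reads in 3 of the groups. Promoter sequences are from RefSeq (GRCr8), whose coordinates differ from those of mRatBN7.2.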

Additional observations from a re-analysis of the deposited data

Results flagged for a closer look

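The LPS response of Tnip1, Tnfaip3 and Cflar differed between irradiated and sham rats in the test of the difference itself, by 1.81, 1.23 and 0.68 on the log2 scale. Among 35 sets of 4 libraries (a gene in a group), 2 held a library far from the other 3. Chance gives about 1 in 20, so the 2 are near that share. Tnfaip3 was at 46.7 CPM in the first irradiated PBS library, with a gap of 0.908 of the range. Tnip3 was at 4.74 CPM in the second irradiated LPS library, with a gap of 0.899 of the range.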

How the results depend on the processing

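Of the members' tests under the alternatives, 1167 kept direction and side of the threshold, 12 passed only in the alternative, 7 were lost and 18 changed sign, the last all short of the threshold in the original fit. Many of these fits left out a library of a group outside the comparison. That alters the estimate little, so agreement in such fits says little. For the difference of the LPS response, the number of genes called (171) was 438 with DESeq2, 98 without both irradiated libraries numbered 1 and 103 to 191 with single libraries left out. No label says that a replicate number marks a shared animal, litter or day, so the numbers were not used as pairs. In the data, 24 same-number pairs correlated at -0.09 to 0.41 (median 0.09, 10 above 0.1, with all pairs numbered 1 at 0.102 or more), against a median of -0.03 for different numbers. These medians are tied to each other, because levels were centred within each group before correlating. Best correlations were with the library's own number in 11 of 16 libraries, although only 24 pairs shared a number and 72 did not. What same-numbered libraries may share was not tested. With replicate number as a block, 221 genes were called for that difference, against 171, and 7, 9, 4, 6 and 3 members for LPS in sham rats, LPS in irradiated rats, irradiation with PBS, irradiation with LPS and the difference, the block adding Traf1 to the second count.

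Sign changes concerned values near 0, and their cause was not tested. Tnip1 with LPS in sham rats (-0.01) was 0.0040 with RLE size factors, 0.0038 with DESeq2, 0.026 with voom and 0.012 with the compared groups alone, and -0.11 to 0.079 with single libraries left out. Tnf with irradiation and PBS (0.04) was -0.046 with voom, -0.043 with the replicate block and -0.14 to 0.21 with single libraries left out. Tnfrsf1a with irradiation and LPS (-0.02) was 0.055 with library totals, 0.013 with voom, 0.050 without both irradiated libraries numbered 1, and -0.092 to 0.097 with single libraries left out. Library totals moved the median of all genes by 0.156 for irradiation with PBS, where 76.3% of calls were higher against 53.7% with TMM. They moved it by -0.118 for LPS in irradiated rats, where 39.2% were higher against 54%, and by -0.08 for the difference, where 28% were higher against 48.5%. With single libraries left out, members called ranged from 7 to 7, 8 to 9, 3 to 5, 6 to 6 and 2 to 3 in the order above. Tnfrsf1b with irradiation and PBS passed without the fourth irradiated PBS library (adjusted p = 0.0404), and Tnip1 in that comparison did not pass without both irradiated libraries numbered 1 (adjusted p = 0.0792).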
